A study of Mus musculus with 8 samples.

Results

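Small pre-B and immature B cells are the B-lineage cells that have stopped making the surrogate light chain and begun to transcribe a conventional one. They were picked here cell by cell, from raw counts of unique molecular identifiers (UMIs, each standing for 1 captured transcript), in single-cell RNA-seq libraries made after a stem-cell sort, whose gate took Epcr+ cells that were also Lin-, Sca-1+ and Kit+. A cell was taken where it held at least 1 UMI of Cd79a, at least 2 of Igkc, none of Vpreb1 or Igll1, and none of Mpo, Klf1 or Mcpt8, after cells with fewer than 1000 genes, fewer than 2000 UMIs or more than 10% mitochondrial UMIs were dropped. The rule took 2244 of 31952 cells, called Igkc+ cells hereafter.

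The Igkc+ cells were found in liver, spleen and bone marrow of wild-type mice 2 days after birth (P2), with 1 library for each tissue from a merged pool of 7 mice. They were set against 2 kinds of cells: pro-B and large pre-B cells of the same libraries, which held at least 1 UMI of Cd79a and of Vpreb1 or Igll1 and none of Mpo, Klf1 or Mcpt8, and the cells of a wild-type E19 library whose labels name bone marrow in one place and fetal liver in another. A further 2 tubes held bone marrow and spleen of 2 P2 pups of genotype Tppp3CreER LSLTdTomato given tamoxifen at P0, so that cells of the Tppp3 lineage carry tdTomato. Tube 2 mixed tdTomato-negative cells of pup 1 with a few tdTomato-positive cells of pup 2, and hashtags (antibody-borne barcodes) told tissues apart. All cells passed magnetic enrichment for c-Kit before the sort, so the shares given are shares of that sorted fraction and not of a whole organ.

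In textbook B-cell development, Rag1 and Rag2 first join the heavy-chain gene segments of a pro-B cell. The heavy chain is then tested with the surrogate light chain, which Vpreb1 and Igll1 encode, and the large pre-B cells that pass divide in response to interleukin-7. They later leave the cycle as small pre-B cells, turn the Rag genes on again, rearrange Igk and, where that fails, Igl, and become immature B cells with IgM on the surface, which move to the spleen and mature further as transitional cells.

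Igkc+ cells were 637 of 5634 liver cells (11.3%, exact 95% binomial interval 10.5% to 12.2%), 1479 of 9043 spleen cells (16.4%, 15.6% to 17.1%) and 127 of 6550 bone marrow cells (1.94%, 1.62% to 2.30%). With the floor lowered to 500 genes and 1000 UMIs the shares were 14.0%, 19.3% and 4.40%, so the bone marrow share moved the most relative to its size, though not in percentage points. The E19 library held 1 such cell among 10725 (0.00932%, 0.000236% to 0.0519%). Pro-B and large pre-B cells were 532 (9.44%) in liver, 168 (1.86%) in spleen, 679 (10.4%) in bone marrow and 134 (1.25%) at E19. The spleen was the tissue with most Igkc+ cells and fewest pro-B and large pre-B cells of the P2 pool, and bone marrow the reverse. E19 was isolated on another day and as another batch than the P2 pool, so age, batch and the unsure tissue cannot be told apart in that comparison. With 1 library of the pool for each tissue the pool alone gave no test between tissues, and all intervals cover counting error only.

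The 3 P2 libraries held 6867, 10522 and 8061 barcodes for liver, spleen and bone marrow, and 16 to 34 barcode sequences were shared by any 2 of the 4 libraries, with 1 Igkc+ barcode found in both liver and spleen. Igkc+ cells were shallower than the pro-B and large pre-B cells, with medians of 3154, 3417 and 3516 UMIs in liver, spleen and bone marrow against 5142.5, 5235 and 5301 UMIs. Free RNA was read from cells with both Mecom and Hlf, which mark stem cells, and no UMI of Cd79a, Mpo, Klf1 or Mcpt8. Of these, 4.44%, 4.43% and 0.335% held an Igkc UMI in liver, spleen and bone marrow. The 2 UMIs that the rule asks for were held by 0%, 0.311% and 0%. In liver, 14.9% of the cells with Mpo and no Cd79a held an Igkc UMI and 7.34% held at least 2, at a median of 16737 UMIs. The rule leaves cells with Mpo out. Cells with a Cd79a UMI were left out of both sets, so these shares can understate free RNA of B cells.

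Just inside the rule, cells with exactly 2 Igkc UMIs numbered 33 in liver, 57 in spleen and 13 in bone marrow, and Ms4a1 was seen in 21.2%, 68.4% and 7.69% of them and Rag1 in 48.5%, 1.75% and 38.5%. Just outside it, cells with 1 Igkc UMI and otherwise alike numbered 32, 33 and 16, with Ms4a1 in 18.8%, 60.6% and 0% and Rag1 in 46.9%, 12.1% and 18.8%. Cells with no Igkc UMI at all numbered 69, 121 and 68, of which 20, 43 and 3 held at least 10 UMIs of the lambda constant genes. The rule asks for kappa, so these lambda-bearing cells stand outside the counts given.

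The label was checked against the marker genes it came with and against genes of the cell cycle. Of the markers, Cd79a and Igkc were used by the rule. Ms4a1, which encodes CD20 and appears on immature B cells, was seen in 65.9% of Igkc+ cells of liver, 94.4% of spleen and 57.5% of bone marrow. Vpreb3, which encodes an endoplasmic reticulum protein of pre-B and immature B cells, was seen in 76.8%, 37.5% and 77.2%. After every cell was thinned to 2000 UMIs the shares were 56.8%, 86.2% and 52.0% for Ms4a1 and 67.3%, 25.4% and 66.9% for Vpreb3, in the same order of libraries. In the stem-cell-marked cells Ms4a1 was seen in 0%, 1.09% and 0.0837% without thinning, at medians of 7929, 6243 and 5793 UMIs.

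The word small was not borne out in bone marrow. A UMI of Mki67 or Top2a, genes of dividing cells, was seen in 284 of 637 Igkc+ cells of liver (44.6%), 536 of 1479 of spleen (36.2%) and 94 of 127 of bone marrow (74.0%), and in 39.4%, 28.3% and 71.7% after thinning. No background share was measured for these genes. By a stricter measure, G2/M genes at 0.5% or more of a cell's UMIs, the shares were 19.3%, 10.3% and 44.9%. The 18 listed G2/M genes summed to 3509.6 CPM (UMIs scaled to the same total in each class and library) in liver, 1854 CPM in spleen and 5594 CPM in bone marrow Igkc+ cells, against 4747, 5186 and 5577 CPM in pro-B and large pre-B cells of the same libraries. Over all Igkc+ cells the level thus lay at that of the pro-B and large pre-B cells in bone marrow, and far under it in spleen. Dividing cells were not confined to bone marrow. Of Igkc+ cells without Ms4a1, 50.2% in liver, 57.8% in spleen and 88.9% in bone marrow held Mki67 or Top2a. Of those with Ms4a1, 41.7%, 35.0% and 63.0% did. Cell size was not measured. With a floor of 500 genes and 1000 UMIs the rule took 326 bone marrow cells instead of 127. The cell-cycle genes of those shallower cells were not read, so the shares describe the deeper cells only.

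The Igkc+ cells fell into a set with Rag1 or Rag2 and a set with Ms4a1, and few cells held both. In liver 103 cells held Rag1 or Rag2 without Ms4a1 (16.2%), 414 held Ms4a1 without either Rag gene (65.0%), 6 held both (0.942%) and 114 held neither (17.9%). In spleen 12 cells held a Rag gene without Ms4a1 (0.811%), 1395 held Ms4a1 alone (94.3%), 1 held both and 71 held neither (4.80%). In bone marrow the counts were 20 (15.7%), 71 (55.9%), 2 and 34 (26.8%). The intervals of the share with a Rag gene and no Ms4a1 overlapped between liver and bone marrow (13.4% to 19.3% and 9.89% to 23.3%). These shares depend on where the Igkc threshold lies: of cells with 2 to 9 Igkc UMIs, 38.1% in liver, 2.02% in spleen and 33.9% in bone marrow held a Rag gene, against 6.40%, 0.113% and 1.54% of cells with 10 or more.

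**Figure D1:**
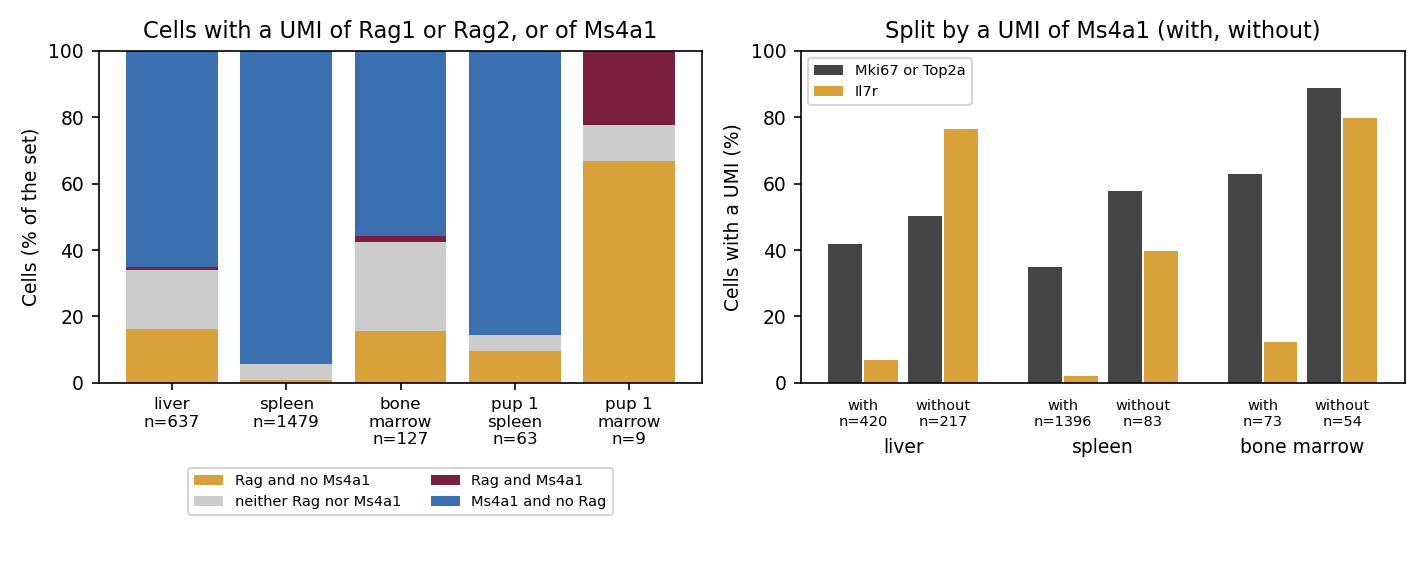
Left, share of Igkc+ cells (%) with a UMI of Rag1 or Rag2, of Ms4a1, of both or of neither, in the P2 pool and in pup 1, with the number of cells under each bar. Right, share of cells (%) with a UMI of Mki67 or Top2a and of Il7r, split by a UMI of Ms4a1, in the 3 tissues of the pool. Ms4a1 without a Rag gene reached 94.3% in spleen, and Il7r was far commoner in cells without Ms4a1 than with it in each tissue.

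Splitting the Igkc+ cells by a UMI of Ms4a1, a split chosen after its values were seen and given with no test, gave differences in one direction for the genes that follow in each tissue. Il7r, the interleukin-7 receptor of pro-B and pre-B cells, was seen in 6.90% of liver cells with Ms4a1 and 76.5% of those without it. The values were 2.01% and 39.8% in spleen, and 12.3% and 79.6% in bone marrow. Vpreb3 stood at 501 CPM with Ms4a1 and 2227 CPM without it in liver, at 155 and 1336 CPM in spleen, and at 456 and 1933 CPM in bone marrow. Sox4, a transcription factor of early B-lineage cells, was at 28.9 and 469.7 CPM in liver, 31.1 and 216 CPM in spleen, and 58.5 and 291 CPM in bone marrow. Ebf1, which sets up the B-cell programme, was at 1528 and 6699.8 CPM, 1616 and 3104 CPM, and 1310.1 and 4265 CPM.

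The other side of the split carried the D-type cyclin Ccnd2, with 543 CPM in cells with Ms4a1 and 47.2 CPM in those without it in liver, 337 and 169 CPM in spleen, and 485 and 97.2 CPM in bone marrow. Ccnd3, the D-type cyclin of dividing pre-B cells, ran the other way, at 145 and 393 CPM, 159.9 and 350.5 CPM, and 211 and 460.2 CPM. Cd74, the invariant chain of MHC class II, was at 2103 and 493 CPM in liver, 2935 and 1879 CPM in spleen, and 1766 and 209.6 CPM in bone marrow. Other class II genes did not all follow it: in spleen H2-Ab1 was at 419 CPM with Ms4a1 (interval 402 to 436) and 555 CPM without it (468 to 653), and H2-Eb1 at 433 and 462 CPM. Ighd was at 105 and 128 CPM in liver, and ran the other way at 206 and 169 CPM in spleen and 67.3 and 40.9 CPM in bone marrow. Its intervals overlapped in each tissue. Cells without Ms4a1 were the shallower, with medians of 2694 against 3303 UMIs in liver, 2644 against 3460 in spleen and 3192 against 3974 in bone marrow, and the part of depth in the split was not tested.

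Igkc+ cells were then compared with pro-B and large pre-B cells across the 3 P2 libraries, on counts summed for each class and library, with the library as a block (edgeR quasi-likelihood test, Benjamini-Hochberg adjustment). Of 11251 genes tested, 1063 were higher in Igkc+ cells (9.45%) and 885 were lower (7.87%) at an adjusted p under 0.05, and the median log2 fold change over all genes was -0.01. These percentages are the background for the counts of listed genes that follow. Genes of the rule itself are not counted among them, and the direction of a gene tied to light-chain rearrangement follows in part from how the classes were drawn. Without the liver library the counts were 478 higher and 292 lower, and 751 of those 770 genes were also called with all 3 libraries, all with the same sign.

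Of the list of immunoglobulin constant genes, which also holds Jchain, 6 of 6 tested were higher. Ighm, the mu heavy chain, stood at 3349, 2737 and 2407 CPM in Igkc+ cells of liver, spleen and bone marrow, against 1048, 970.1 and 899 CPM in pro-B and large pre-B cells. The groups did not overlap, and the log2 fold change was 1.55 ± 0.12 (SE; adjusted p = 3.05e-05, edgeR, 3 libraries). Ighd, the delta chain of more mature B cells, was at 111, 205 and 57.7 CPM against 46.8, 46.5 and 27.4 CPM (log2 1.52 ± 0.21, adjusted p = 0.000805, edgeR). Jchain, which joins secreted antibody and is not itself a constant gene, was at 74.0, 37.6 and 3.72 CPM against 5.48, 0.968 and 0.722 CPM. Its UMIs came from few cells in liver and bone marrow, as given under other observations. Reads of spliced and germline transcripts of the constant genes cannot be told apart in 3′ counts.

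The lambda constant genes, which the rule did not ask for, were among them. Iglc1 was at 1082, 1237 and 852 CPM in Igkc+ cells of liver, spleen and bone marrow, against 24.2, 189.8 and 5.53 CPM in pro-B and large pre-B cells (log2 4.94 ± 0.66, adjusted p = 0.000664, edgeR). Iglc2 and Iglc3, whose sequences are near-identical so that their split is uncertain, had log2 fold changes of 4.95 ± 0.28 and 5.06 ± 0.33. A UMI of Iglc1, Iglc2 or Iglc3 was seen in 412 of 637 Igkc+ cells of liver (64.7%, 60.8% to 68.4%), 1417 of 1479 of spleen (95.8%, 94.7% to 96.8%) and 68 of 127 of bone marrow (53.5%, 44.5% to 62.4%). Thinned to 2000 UMIs the shares were 61.1%, 91.9% and 51.2%. Iglc1 alone was seen in 1.48%, 1.40% and 0.251% of the stem-cell-marked cells of the same libraries.

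Lambda and kappa transcripts stood in the same cells. Igkc had a median of 16 UMIs a cell in liver, 11 in spleen and 10 in bone marrow, and the lambda genes together had medians of 3, 8 and 1. Among cells with at least 10 Igkc UMIs, 141 of 422 in liver (33.4%, 28.9% to 38.1%), 410 of 884 in spleen (46.4%, 43.1% to 49.7%) and 21 of 65 in bone marrow (32.3%, 21.2% to 45.1%) also held at least 10 lambda UMIs. Lambda UMIs at least matched kappa UMIs in 10.8%, 35.0% and 11% of Igkc+ cells. With the highest doublet scores removed, a lambda UMI was seen in 64.1%, 95.9% and 54.3%. Lambda was commoner on the Ms4a1 side, in 84.3% of cells with Ms4a1 and 26.7% of those without it in liver, 98.6% and 49.4% in spleen, and 89.0% and 5.56% in bone marrow. Whether these transcripts come from rearranged genes was not tested.

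**Figure D2:**
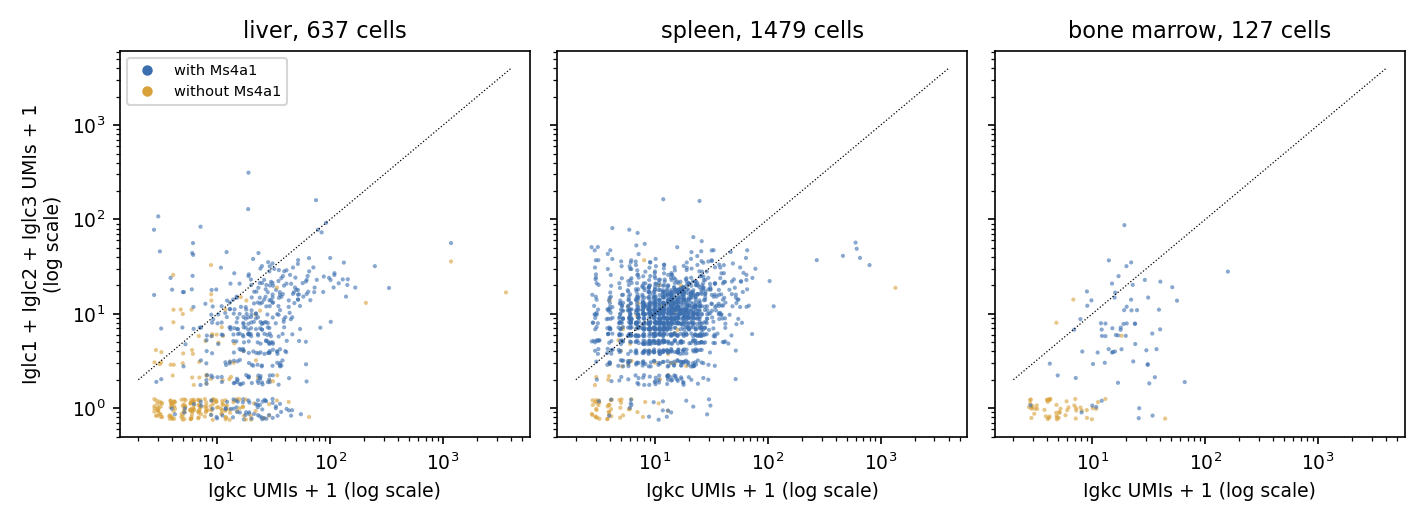
UMIs of Igkc (horizontal) and of Iglc1, Iglc2 and Iglc3 together (vertical) in each Igkc+ cell of liver, spleen and bone marrow, both plus 1 on log scales with small random shifts to separate points. Blue points hold a UMI of Ms4a1 and yellow points none, and the dotted line marks equal counts. In spleen 95.8% of the cells hold a lambda UMI, and the cells at 0 lambda UMIs in liver and bone marrow are mostly those without Ms4a1.

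Variable-segment genes were sparse in the pool. An Igkv gene was seen in 39.6%, 26.6% and 22.0% of Igkc+ cells in liver, spleen and bone marrow, and in 63.5% of the deeper pup 1 spleen cells. Among 84 liver cells with at least 2 Igkv UMIs, 30 different genes led, most often Igkv1-117 in 16 cells (19.0%) and Igkv1-110 in 8 (9.52%). Among 112 spleen cells 33 genes led, most often Igkv1-110 in 20 cells (17.9%) and Igkv1-117 in 15 (13.4%). The intervals of both genes overlapped between the tissues, and no single Igkv gene led in most cells. An Ighv gene was seen in 19.2%, 22.9% and 11.8%, and of 110 cells with at least 2 Ighv UMIs in the 3 tissues Ighv3-6 led in 11. V genes share sequence, so their counts can be split between copies.

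Genes of B-cell receptor signalling were mostly higher in Igkc+ cells, 12 of 17 tested against 1 lower, with 7 higher and 0 lower without liver. Ms4a1 was at 892, 1346 and 828 CPM in liver, spleen and bone marrow, against 25.7, 89.1 and 15.4 CPM in pro-B and large pre-B cells (log2 4.93 ± 0.30, adjusted p = 5.08e-06, edgeR). Cd52, a surface glycoprotein of lymphocytes, was at 1459, 2907 and 1014 CPM against 238, 378 and 245 CPM (log2 2.56 ± 0.18). Cd22, an inhibitory co-receptor, was at 97.0, 131 and 57.7 CPM against 20.8, 22.3 and 16.8 CPM (log2 2.22 ± 0.19). Each of these had its lowest Igkc+ value well above the highest value of the other class. The kinases Lyn (log2 1.73 ± 0.14) and Blk (1.72 ± 0.16) and the phosphatase Ptpn6 (1.76 ± 0.17) rose by similar amounts.

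The kinase gene Btk and the adaptor genes Blnk and Pik3ap1 did not pass the test, with log2 fold changes between -0.34 and 0.20, though Blnk was called lower without spleen (-0.45, adjusted p = 0.00402, edgeR). Cd79b, the partner of Cd79a, was at 1012, 983 and 897 CPM against 619, 521 and 674 CPM (log2 0.70 ± 0.14, adjusted p = 0.0076, edgeR), a call lost without liver (adjusted p = 0.116). Cd81, a tetraspanin of the B-cell co-receptor complex, was the gene that fell, at 88.8, 127 and 162 CPM against 165, 162 and 211 CPM (log2 -0.53 ± 0.15, adjusted p = 0.0358, edgeR). That call was also lost without liver (0.35), without the library block (0.147) and with DESeq2 (0.11).

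Among 20 B-lineage transcription factors, 5 rose and 5 fell, and without spleen 8 were higher and 7 lower. Klf2, a factor of quiescent lymphocytes, was at 349, 404 and 313 CPM in Igkc+ cells of liver, spleen and bone marrow, against 22.5, 26.1 and 19.7 CPM in pro-B and large pre-B cells (log2 3.98 ± 0.15, adjusted p = 4.64e-07, edgeR). Ikzf3, encoding Aiolos, was at 641, 527 and 342 CPM against 68.4, 80.4 and 26.9 CPM (log2 3.22 ± 0.18). Spib (2.19 ± 0.16) and Pou2f2 (2.00 ± 0.18) rose as well. Irf4, which promotes light-chain rearrangement, rose least (0.78 ± 0.21, adjusted p = 0.0268, edgeR), and that call was lost without liver (0.21), without the library block (0.119), after thinning (0.276), with at least 5 Igkc UMIs (0.0502) and with DESeq2 (0.0605).

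On the lower side, Erg was at 3.78, 15.4 and 3.72 CPM in liver, spleen and bone marrow, against 415, 211 and 306 CPM (log2 -4.97 ± 0.45, adjusted p = 5.7e-05, edgeR). Lef1, a factor of pro-B cells, was at 130.4, 107 and 74.4 CPM against 849, 498 and 536 CPM (log2 -2.54 ± 0.16). Ebf1 (-1.29 ± 0.11), Myb (-1.24 ± 0.22) and Sox4 (-1.36 ± 0.23) were the others, and the call on Sox4 was lost without the library block (adjusted p = 0.0516). Pax5, which keeps cells in the B lineage, was level in both classes, at 828, 608 and 569 CPM against 742, 551 and 572 CPM (log2 0.12 ± 0.13, adjusted p = 0.575, edgeR).

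**Figure D3:**
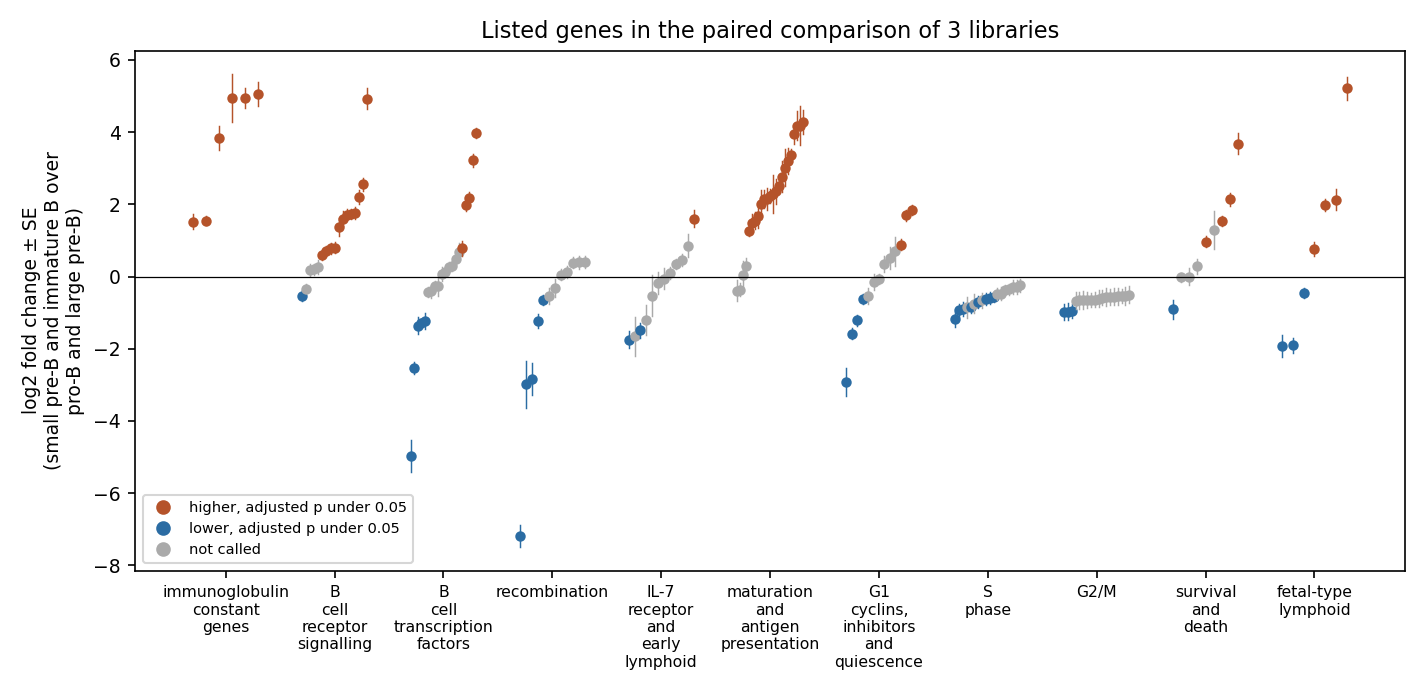
log2 fold change of Igkc+ cells over pro-B and large pre-B cells, with its standard error, for the listed genes that were tested in 3 libraries with the library as a block (edgeR). Each point is 1 gene, grouped by list and ordered by value, and colour marks genes past an adjusted p of 0.05. Constant, maturation and most receptor-signalling genes lie above 0, while Rag1, Rag2 and Dntt lie under -2.

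The recombination genes had 0 of 12 higher and 5 lower. Dntt, which adds bases at heavy-chain joints, was at 0.630, 0.486 and 1.86 CPM in Igkc+ cells of liver, spleen and bone marrow, against 127, 85.2 and 83.5 CPM in pro-B and large pre-B cells (log2 -7.19 ± 0.30, adjusted p = 8.41e-07, edgeR). Rag1 was at 38.7, 0.648 and 37.2 CPM against 140, 114 and 153 CPM (log2 -2.99 ± 0.64, adjusted p = 0.00998, edgeR), and the call was lost with DESeq2 (adjusted p = 0.0966). Rag2 was at 13.9, 2.11 and 22.3 CPM against 71.9, 58.1 and 56.3 CPM (log2 -2.83 ± 0.44). Over all Igkc+ cells both Rag genes were lower than in the other class in each tissue, and in spleen they were nearly absent. These levels mix cells with and without Ms4a1. In cells without it, Rag1 was at 151, 15.4 and 92.0 CPM and Rag2 at 54.9, 46.2 and 56.2 CPM in liver, spleen and bone marrow. There Rag1 in liver and Rag2 in bone marrow lay near the other class. The end-joining genes Xrcc4, Xrcc5, Lig4, Dclre1c, Prkdc and Atm did not pass the test, with log2 fold changes between -0.31 and 0.40.

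Vpreb3 fell (log2 -1.34 ± 0.30, adjusted p = 0.012, edgeR), with 927, 205 and 993 CPM in liver, spleen and bone marrow against 1686, 1202 and 1605 CPM. Without the library block its adjusted p was 0.129. The fall did not hold in Igkc+ cells without Ms4a1, where Vpreb3 was at 2227, 1336 and 1933 CPM. Those values lay above the other class in liver and bone marrow, and the spleen interval was 1199 to 1485 CPM. Vpreb2 is a near-identical copy of Vpreb1, which the rule used, and it had 1 UMI in all Igkc+ cells against 2068 in pro-B and large pre-B cells. That difference follows from how the classes were drawn. Of the early lymphoid genes, Kit fell (log2 -1.75 ± 0.24, adjusted p = 0.000864, edgeR), as did the cytokine receptor gene Flt3 (-1.49 ± 0.22), whose call was lost after thinning (adjusted p = 0.072). The shared cytokine-receptor chain Il2rg rose (1.61 ± 0.25). Il7r did not pass the test, with 162, 20.6 and 251 CPM against 366, 326 and 279 CPM (log2 -1.66 ± 0.54, adjusted p = 0.0646, edgeR). With bone marrow or spleen left out it did pass (adjusted p = 6.61e-12 and 0.000317, edgeR). Il7r was also called lower with all libraries kept and no filter on low counts (adjusted p = 1.09e-20, edgeR). The same held with at least 5 Igkc UMIs (adjusted p = 0.03, edgeR) and with classes drawn on thinned cells (adjusted p = 0.0281, edgeR). The result on Il7r thus depended on the filter, the rule and the library left out.

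Genes of maturation and antigen presentation were the list with most calls, 20 of 24 higher and 0 lower, with a median log2 fold change of 2.26. Cd74 was at 1706, 2890.4 and 1200.0 CPM in Igkc+ cells of liver, spleen and bone marrow, against 247, 136 and 27.9 CPM (log2 4.17 ± 0.40, adjusted p = 8.42e-05, edgeR). H2-Aa, the alpha chain of the class II molecule I-A, was at 253, 508 and 158 CPM against 104, 25.2 and 7.70 CPM (log2 3.01 ± 0.51, adjusted p = 0.00267, edgeR). H2-Eb1, the beta chain of I-E, was at 203, 434 and 96.7 CPM against 79.7, 28.1 and 6.74 CPM (log2 2.77 ± 0.43). H2-Ab1 (1.47 ± 0.27) and Ciita, the class II transactivator (2.00 ± 0.40), rose too. Class II was highest in spleen and lowest in bone marrow among Igkc+ cells.

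Because H2-Aa and H2-Eb1 moved together here and between tissues, their promoters are shown, from 250 bases before to 50 bases after the start of each gene (RefSeq, build GRCm38.p6). The capitals mark CTGATTGG, the letters of the Y box that the factor NF-Y reads in class II promoters. H2-Aa lies at chr17:34287774-34288073 on the minus strand and H2-Eb1 at chr17:34305617-34305916 on the plus strand.
H2-Aa: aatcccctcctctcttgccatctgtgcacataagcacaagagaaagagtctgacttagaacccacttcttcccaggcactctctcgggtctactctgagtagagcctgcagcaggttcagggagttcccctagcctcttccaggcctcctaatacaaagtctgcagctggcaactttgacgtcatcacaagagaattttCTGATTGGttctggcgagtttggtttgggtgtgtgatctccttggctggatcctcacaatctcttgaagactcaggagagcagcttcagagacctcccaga
H2-Eb1: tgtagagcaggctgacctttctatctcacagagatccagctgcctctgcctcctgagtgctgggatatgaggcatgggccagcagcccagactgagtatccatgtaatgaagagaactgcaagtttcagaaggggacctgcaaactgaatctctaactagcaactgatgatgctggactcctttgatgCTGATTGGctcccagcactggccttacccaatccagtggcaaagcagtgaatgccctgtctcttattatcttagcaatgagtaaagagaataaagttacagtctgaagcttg
Both strands were searched for these letters. The match began 51 bases before the start in H2-Aa and 62 bases before it in H2-Eb1, with 1 match in each window. Of all 32851 promoter windows of that length, 1346 (4.10%) held the letters, and so did 3 of the 12 maturation genes that had a window. A match in letters describes the sequence only.

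Cd83 (log2 4.29 ± 0.33), the adhesion molecule Cd2 (3.95 ± 0.27) and the low-affinity IgE receptor Fcer2a (4.18 ± 0.55, with 5 UMIs in pro-B and large pre-B cells) had the other largest rises of the list. The BAFF receptor gene Tnfrsf13c was at 209, 176 and 171 CPM in Igkc+ cells of liver, spleen and bone marrow, against 31.8, 33.9 and 34.2 CPM (log2 2.51 ± 0.16). S1pr1, a receptor for exit from tissue into blood, rose as well (2.24 ± 0.20). Cr2, the complement receptor of transitional and marginal zone cells, was at 8.82, 46.2 and 0 CPM against 3.18, 2.90 and 1.20 CPM, and its call (adjusted p = 0.0152, edgeR) was lost without spleen (0.2), after thinning (0.0581) and with DESeq2 (0.0701). Cxcr4, S1pr4 and Cd24a did not pass the test, though Cd24a was called lower without bone marrow (log2 -0.66, adjusted p = 0.0189, edgeR).

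The cell-cycle lists gave 0 genes higher, with 8 of 18 S-phase genes and 3 of 18 G2/M genes lower. Their median log2 fold changes were -0.60 and -0.63. The counts depended on the library left out: without bone marrow 12 S-phase and 18 G2/M genes were lower, and without liver 2 and 2. They also depended on the processing with all libraries kept. With no filter on low counts 12 and 18 were lower, with at least 5 Igkc UMIs 9 and 10, and after thinning 12 and 2. Cdk1 was at 101, 63.1 and 171 CPM in Igkc+ cells of liver, spleen and bone marrow, against 182, 194 and 235 CPM (log2 -0.96 ± 0.20, adjusted p = 0.00746, edgeR), and without liver its adjusted p was 0.0522. Mki67 was at 702, 333 and 1006 CPM against 882, 877 and 896 CPM and did not pass (log2 -0.50 ± 0.24, adjusted p = 0.183, edgeR), but did without bone marrow (-0.81, adjusted p = 0.000768) and with no filter on low counts (0.00856). Mki67 was lower than in the other class in liver and spleen and slightly higher in bone marrow. In Igkc+ cells without Ms4a1, Mki67 was at 1114, 936 and 1718 CPM in liver, spleen and bone marrow. Those values lay above the other class in liver and bone marrow, and the spleen interval (822 to 1061) held the other class's value.

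Genes around the G1 phase split by gene. Ccnd2 was at 421, 329.9 and 344 CPM in liver, spleen and bone marrow, against 101, 104 and 103 CPM (log2 1.85 ± 0.14, adjusted p = 2.73e-05, edgeR). Ccnd3 was at 206, 168 and 301 CPM against 539.8, 485 and 503 CPM (log2 -1.21 ± 0.16, adjusted p = 0.00059, edgeR), and Cdk6, their partner kinase, fell by 1.58 ± 0.14. The inhibitor Cdkn1a fell too (log2 -2.93 ± 0.38), while the antiproliferative genes Btg1 (1.69 ± 0.15) and Btg2 (0.88 ± 0.16) rose. D-type cyclin levels thus ran in opposite directions in each of the 3 libraries.

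Survival genes gave 4 of 9 higher and 1 lower. Bcl2 was at 122, 233 and 102 CPM in Igkc+ cells of liver, spleen and bone marrow, against 28.9, 40.7 and 30.3 CPM (log2 2.14 ± 0.18, adjusted p = 4.04e-05, edgeR). Bcl2a1b (3.68 ± 0.30), which has close paralogues that share its reads, and Mcl1 (1.54 ± 0.14) also rose. Bcl2l1, encoding Bcl-xL, fell (-0.91 ± 0.26, adjusted p = 0.0389, edgeR), a call lost without liver (0.135), without the library block (0.2), after thinning (0.212) and with DESeq2 (0.069).

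Of 7 tested genes listed for fetal-type lymphoid cells, 4 were higher and 3 lower. Bhlhe41, a factor of B-1a cells, was at 40.3, 89.8 and 39.1 CPM in Igkc+ cells of liver, spleen and bone marrow, against 1.15, 3.87 and 0.481 CPM (log2 5.22 ± 0.32, adjusted p = 5.54e-06, edgeR). Arid3a, a target of Lin28b in fetal B-cell development, was at 251, 142 and 214 CPM against 58.3, 46.5 and 49.8 CPM (log2 1.98 ± 0.15), and Cd5 rose by 2.13 ± 0.30. Lin28b itself, the RNA-binding protein of fetal lymphopoiesis, was at 12.9, 12.5 and 9.30 CPM against 58.0, 39.7 and 36.8 CPM (log2 -1.90 ± 0.21, adjusted p = 0.000199, edgeR). Hmga2 fell as well (-1.91 ± 0.31). The third fall, Igf2bp3 (-0.46 ± 0.14, adjusted p = 0.0449, edgeR), was lost without liver (0.247), without bone marrow (0.196), without the library block (0.0694), after thinning (0.145) and with DESeq2 (0.145). The rise of Plac8 (0.77 ± 0.19) was lost without liver (0.0969) and without the block (0.0742).

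Outside the lists and apart from V genes, the largest rises by log2 fold change were Wnt10a, Pcp4, Gm4610, Shank2, Egr3, Bmp6, C130026I21Rik, Timd2, Lmo7 and Fcmr. Wnt10a had 126 UMIs in Igkc+ cells and none in pro-B and large pre-B cells, which makes it at least 36.8-fold higher against a floor of 3 UMIs over the class. Fcmr, the receptor for IgM, was at 219.9, 280.3 and 210.2 CPM in liver, spleen and bone marrow, against 4.04, 12.6 and 1.92 CPM (log2 5.68 ± 0.30, adjusted p = 3.77e-06, edgeR). Egr3, an immediate-early factor, had 306 UMIs against 2. The largest falls were D030045P18Rik, Speer2, Gm30948, Rgs8, Arpp21, Fxyd6, Nkd2, Rd3l, 2310075C17Rik and Enpep. Arpp21 was at 3.46, 0.810 and 1.86 CPM against 282, 135 and 262 CPM (log2 -6.71 ± 0.24, adjusted p = 4.64e-07, edgeR). 2310075C17Rik lies within Arpp21 on the other strand, and the strand used in counting is not given in the sources used here.

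Markers of other cell types and of the sort were set beside these results. Procr, the gene of the sorted antigen Epcr, had 17 UMIs in all Igkc+ cells, at 0.315, 2.43 and 1.86 CPM in liver, spleen and bone marrow, and Kit stood at 15.1, 17.3 and 29.8 CPM. Ly6a, which encodes Sca-1, rose (log2 2.39 ± 0.22). Of 7 stem-cell markers tested, Mecom (1.75 ± 0.35) and Hlf (1.48 ± 0.25) were called higher, and the list summed to 156, 262 and 253 CPM in Igkc+ cells against 153, 151 and 210.3 CPM. Both of those calls were lost without the library block (adjusted p = 0.198 and 0.296) and when the classes were drawn on thinned cells (adjusted p = 0.71 for Mecom and 0.582 for Hlf). Of 9 erythroid markers 4 were higher, globins among them, with sums of 282, 727 and 956 CPM against 206, 172 and 619 CPM. Of these markers, 1 was higher without liver, 2 with DESeq2 and 0 without the block. The number was also 0 after thinning, without the highest doublet scores and with thinned classes, where fewer markers were tested. It was 4 or 5 in the other alternatives. Of 7 tested T and NK markers Trbc1 and Cd3g were higher, with sums of 83.2, 104 and 96.7 CPM against 74.5, 31 and 51.7 CPM, and of 7 tested myeloid markers Ctsg was higher, with sums of 193, 74.6 and 180.5 CPM against 161, 62.0 and 106 CPM. The call on Cd3g was lost in 5 alternatives (without liver, spleen, the block or the highest doublet scores, and with DESeq2), that on Ctsg in 5 (without liver, bone marrow or the block, with DESeq2, and with thinned classes, where its log2 fold change was 0.21), and that on Trbc1 in 2 (at least 5 Igkc UMIs and thinned classes). Hepatocyte markers summed to 42.8, 0.973 and 0 CPM against 12.1, 0.968 and 1.68 CPM. Their part in the results was not tested.

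Among the Igkc+ cells themselves, tissues were compared by size: genes with at least 50 UMIs in the pair, a 2-fold difference and exact 95% Poisson intervals apart, with no test since each tissue had 1 library. Liver against bone marrow gave 102 genes higher (1.34% of 7637) and 64 lower (0.838%). Spleen against bone marrow gave 278 higher (3.13% of 8883) and 389 lower (4.38%), and liver against spleen 312 higher (3.26% of 9573) and 259 lower (2.71%). Fewer genes stood apart between liver and bone marrow than between either and spleen, in pairs whose depth differed.

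Some genes of the pre-B stage had their lowest levels in spleen, but the list of early lymphoid genes did not as a whole, with 1 of 12 lowest there, against 43.3% of all 11251 genes tested. Of 12 recombination genes 8 were lowest in spleen. Il7r was at 162 CPM in liver (interval 149 to 177), 20.6 CPM in spleen (17.2 to 24.5) and 251 CPM in bone marrow (211 to 297), 12.2-fold lower in spleen than in bone marrow. Rag1 was at 38.7 CPM (32.2 to 46.2), 0.648 CPM (0.177 to 1.66) and 37.2 CPM (22.7 to 57.5), with 4 UMIs in 1479 spleen cells. Vpreb3 was at 927 CPM (894 to 961), 205 CPM (194 to 216) and 993 CPM (911 to 1081). Sox4 was at 138, 38.9 and 143 CPM. For these genes the intervals of liver and bone marrow overlapped for Rag1, Vpreb3 and Sox4 and did not for Il7r.

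Of 24 maturation genes, 18 had their highest level in spleen (75%), 3 in liver and 3 in bone marrow, where 25% of all genes tested were highest in spleen. Tnfrsf13c was among those highest in liver. Ighd was at 111 CPM in liver (99.6 to 123), 205 CPM in spleen (194 to 216) and 57.7 CPM in bone marrow (39.2 to 81.9). H2-Aa was at 253 CPM (236 to 271), 508 CPM (491 to 526) and 158 CPM (126 to 196), and Cd74 at 1706 CPM (1661 to 1752), 2890.4 CPM (2848 to 2933) and 1200.0 CPM (1109 to 1296). Cr2 had 28, 285 and 0 UMIs, which is at least 8.28-fold higher in spleen than in bone marrow against a floor of 3 UMIs. S100a6, a calcium-binding protein, was at 440.2 CPM in spleen against 44.6 CPM in bone marrow of the pool. That high spleen level was not seen in the pup set beside the pool below. In that order of levels, spleen stood first, liver second and bone marrow last, each apart from its neighbour beyond counting error for Ighd, H2-Aa and Cd74.

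Spleen and bone marrow differed less within the cells that held Ms4a1, though the differences were not gone. There Vpreb3 was at 501, 155 and 456 CPM in liver, spleen and bone marrow, H2-Aa at 279, 509 and 211 CPM, Ighd at 105, 206 and 67.3 CPM, and Il7r at 21.3, 7.45 and 35.1 CPM. Mki67 stood at 567, 306 and 599 CPM in those cells. Spleen remained the lowest for Vpreb3, Il7r and Mki67 and the highest for H2-Aa and Ighd.

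**Figure D4:**
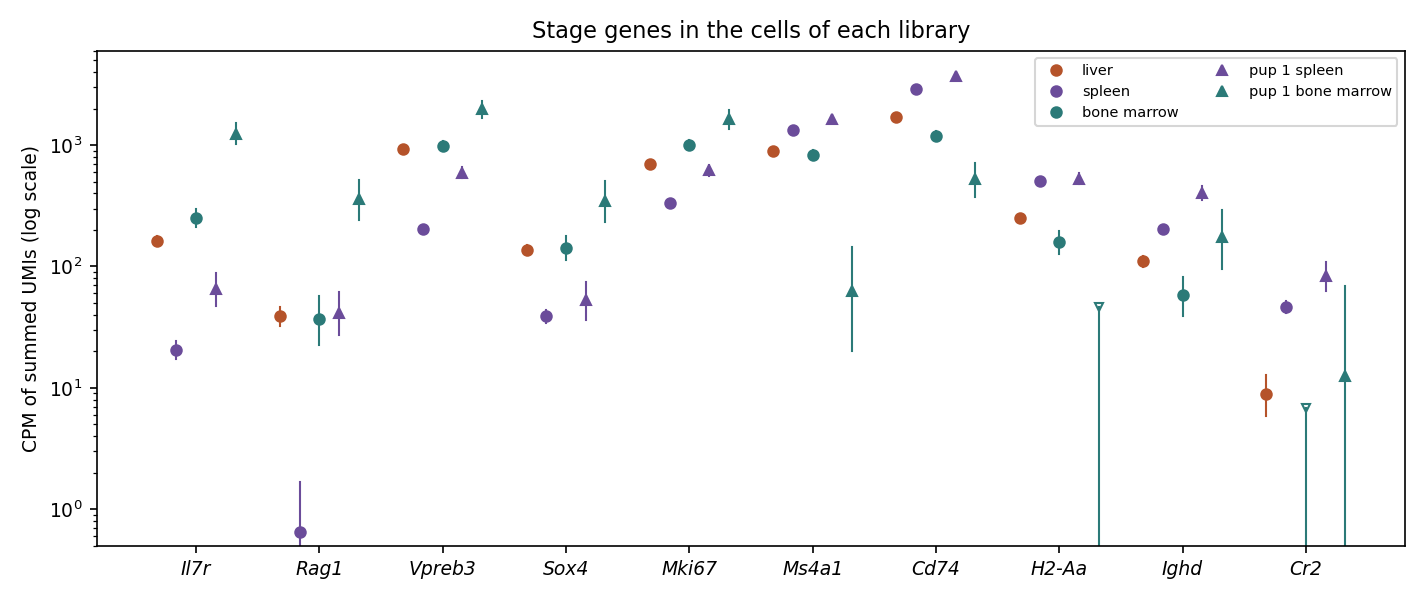
CPM of summed UMIs (log scale) of 10 genes in Igkc+ cells of liver, spleen and bone marrow of the P2 pool (circles) and of spleen and bone marrow of pup 1 (triangles), with exact 95% Poisson intervals. Open downward triangles mark the upper limit where no UMI was seen. Il7r, Rag1, Vpreb3, Sox4 and Mki67 are lower in spleen than in bone marrow in both sources, and Ms4a1, Cd74, H2-Aa and Ighd are higher.

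Pup 1 gave a second animal source for spleen and bone marrow. Tube 2 held 73 Igkc+ cells among 2473 (2.95%, 2.32% to 3.70%). Where the leading hashtag had at least 3 times the count of the second, 63 were assigned to spleen and 9 to bone marrow, at medians of 6757 and 7094 UMIs. A stricter hashtag rule left 37 spleen and 0 bone marrow cells, so the bone marrow values of pup 1 rest on 9 cells with weak assignment. Ms4a1 without a Rag gene was seen in 54 of 63 spleen cells (85.7%), and 8 of 9 bone marrow cells held Rag1 (88.9%). Il7r was at 65.7 CPM in pup 1 spleen and 1246 CPM in pup 1 bone marrow. H2-Aa was at 531 CPM in pup 1 spleen and had no UMI in pup 1 bone marrow. S100a6 was at 57.7 CPM in pup 1 spleen, against 440.2 CPM in the spleen of the pool. It had no UMI in the 9 bone marrow cells of pup 1. A lambda UMI was seen in 58 of 63 spleen cells (92.1%, 82.4% to 97.4%) and 4 of 9 bone marrow cells (44.4%, 13.7% to 78.8%).

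A fit of spleen against bone marrow over the pool and pup 1, added after the data were seen, used 4 sums with the source as a term (edgeR). It called 71 of 7275 genes higher in spleen (0.976%) and 174 lower (2.39%). Without the source term it called 0 in either direction, with 567 genes at an unadjusted p under 0.05 against 1032 with it, so these calls rest on treating the sources as blocks. Il7r was lower in spleen (log2 -3.79 ± 0.30, adjusted p = 7.92e-05, edgeR), as were Rag1 (-3.88 ± 0.53), Rag2 (-2.87 ± 0.54), Sox4 (-2.09 ± 0.33) and Vpreb3 (-1.92 ± 0.26). Bach2, a repressor of the plasma-cell programme, was lower too (-1.54 ± 0.26), as was the chemokine receptor gene Cxcr4 (-2.60 ± 0.46), which holds B-lineage cells in bone marrow.

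Of the listed groups in that fit, 17 of 18 G2/M genes were lower in spleen and 0 higher, with a median log2 fold change of -1.53, while 1 of 18 S-phase genes was lower. Mki67 was at 333 CPM in the spleen and 1006 CPM in the bone marrow of the pool, and at 620.3 and 1633 CPM in pup 1 (log2 -1.40 ± 0.25, adjusted p = 0.00831, edgeR). Of 24 maturation genes 7 were higher in spleen and 1 lower. H2-Eb1 (2.62 ± 0.38), H2-Aa (2.44 ± 0.48), Cd74 (2.05 ± 0.33), H2-Ab1 (1.84 ± 0.34), Fcer2a (2.88 ± 0.72) and Cr2 (5.0 ± 0.90, with no UMI in the pooled bone marrow) were among them. Of 5 constant genes tested, Ighd (1.69 ± 0.32), Iglc2 (1.92 ± 0.30) and Iglc3 (1.24 ± 0.29) were higher in spleen and none lower, while Ms4a1 did not pass (2.00 ± 0.54, adjusted p = 0.0656, edgeR).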

How the data were processed

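Deposited count matrices (10x Genomics 3′ v3, UMI counts of 32285 genes by barcode) were used as the authors deposited them, made with Cell Ranger 7.0.0 (P2 pool), 7.1.0 (E19) and 8.0.1 (tubes) per the file headers. The submitters' processing notes name mm10. The members and gene lists were chosen with earlier results of these data known. UMIs were summed for each library and class. Classes were compared with edgeR 4.0.16 in R 4.3.3 (TMM, quasi-likelihood F-test, library as block, default filter, at least 20 cells in both classes), with DESeq2 1.42.0 as an alternative, checked on simulated counts. Both classes come from the same library, which gives the pairing. The E19 library was left out of that fit because it held 1 Igkc+ cell. Intervals are at 95%, Clopper-Pearson for shares and exact Poisson for CPM, and cover counting error only (scipy 1.17.1). Animals were pooled, so p-values of the class comparison measure the spread between tissues of 1 pool. Those of the fit over the pool and pup 1 rest on 4 sums, 1 of them from 9 cells. There the sources differ in genotype, treatment and batch. Doublets were scored with Scrublet (scanpy 1.11.5), as many as 0.8% of barcodes per 1000 barcodes, and kept in the main results. Library totals were 64757553, 86569596, 66765580 and 87254828 UMIs for liver, spleen, bone marrow and E19. The tubes held 58350172 and 56010320 UMIs. A floor of 3 UMIs was used for bounds. Text names every list's count and examples by size of fold within a list. It also names the 10 largest rises and falls outside the lists, and the largest tissue differences. Early lymphoid genes gave 1 higher and 2 lower of 12 tested, and G1 genes 3 higher and 4 lower of 13. Genes of the sorting gate gave 3 higher and 1 lower of 5. The pre-B and B defining markers gave 4 higher and 2 lower of 10. The list of surrogate light chain genes gave 0 higher and 2 lower of 2, Vpreb2 and Vpreb3. Vpreb2 is near-identical to Vpreb1, on which the classes were drawn, so its call is no separate result. Other lists' calls were 5 of 11 higher for immediate early genes, 1 of 8 for the interferon response, 1 higher and 1 lower of 6 for dendritic markers, 2 higher and 1 lower of 6 for plasma cell markers, 1 of 1 for endothelial markers, 0 of 1 for mast cell markers, and none testable for megakaryocyte and hepatocyte markers. Some listed genes were counted but are not reported here.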

Additional observations from a re-analysis of the deposited data

Results flagged for a closer look

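Tube 1, which the comparisons did not use, held 5 cells that met the rule among 2722 (0.184%, exact 95% binomial interval 0.0597% to 0.428%), above the 3 counts that a count of 0 would allow. They had a median of 3815 UMIs. Tube 2 held 73 such cells among 2473 (2.95%). Per the labels nearly all cells of tube 1 were tdTomato-negative cells of pup 2 and nearly all of tube 2 those of pup 1, so the pup and the tube cannot be told apart.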

How the results depend on the processing

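With at least 5 Igkc UMIs, Igkc+ cells were 9.69%, 14.3% and 1.39% of liver, spleen and bone marrow cells and 0% at E19. With a floor of 500 genes and 1000 UMIs the shares were 14.0%, 19.3% and 4.40%, and with the rule on thinned cells 10.3% in liver and 14.2% in spleen. Leaving out 1 library moved the genes higher in Igkc+ cells between 478 (without liver) and 1162, and those lower between 292 (without liver) and 1182. Thinning gave 691 higher, and DESeq2 525 lower. Without the library block (the pairing of classes by library) 977 were higher and 757 lower. Bach2 turned: its log2 fold change was 0.29 without spleen and -0.59 without bone marrow, and the cause was not tested. Of the genes of all lists and the largest rises and falls, most of them not named in the text, 34 lost their call without liver, 22 without the library block, 15 after thinning, 14 with DESeq2, 10 with classes drawn on thinned cells, and 3 or 4 without spleen, without bone marrow, without the highest Scrublet scores or with at least 5 Igkc UMIs. Without liver, 2 of 10 immediate early genes and 0 of 4 plasma cell markers were higher. At 1.5-fold, 248 genes were higher and 181 lower in liver against bone marrow, 487 and 821 in spleen against bone marrow, and 874 and 476 in liver against spleen. With at least 5 Igkc UMIs, 37 were lower in liver against bone marrow. Spleen against bone marrow over the pool and pup 1 gave 0 higher and 0 lower without the source term. Unthinned, Ms4a1 was seen in 65.9% of liver and 94.4% of spleen cells, Vpreb3 in 76.8%, 37.5% and 77.2% of liver, spleen and bone marrow cells, and Rag1 in 14.0% of liver cells. Thinning to 4000 UMIs could use only the 252 liver, 547 spleen and 54 bone marrow cells with at least that many. In this deeper part of the cells Ms4a1 stood at 64.3%, 93.1% and 63.0%. Vpreb3 stood there at 52.8% in liver and 33.6% in spleen, and Rag1 at 7.94% in liver and 0% in spleen. Depth and the choice of cells thus both differ from the shares at 2000 UMIs. The 127 bone marrow cells limit every comparison with that tissue.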

Other observations

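Genes outside the B-cell lists also stood apart between tissues of Igkc+ cells by the rule of size, with no test. In liver against bone marrow, Jchain, the joining chain of secreted IgM, was at 74.0 against 3.72 CPM, with its UMIs in 12 of 637 liver cells and 1 of 127 bone marrow cells. The cytotoxic granule gene Gzma had 159 UMIs in 28 liver cells against 0 UMIs, and the chemokine gene Ccl5 was at 55.8 against 7.44 CPM, in 13 liver cells and 1 bone marrow cell. Gzma and Ccl5 are genes of T and NK cells, and the part of such cells was not tested. Fam155a ran the other way, at 1.26 CPM in liver against 123 CPM in bone marrow, where 7 cells held its 66 UMIs. In liver against spleen, the liver fatty-acid binding gene Fabp1 had 52 UMIs against 0, in the library whose Igkc+ cells also held the most hepatocyte transcripts. In spleen against bone marrow, Rapgef4 was at 77.6 against 5.58 CPM and Setbp1 at 54.6 against 5.58 CPM, and both were higher in spleen in the fit over the pool and pup 1, with log2 fold changes of 3.60 ± 0.61 and 3.77 ± 0.65 (edgeR, adjusted p = 0.00694 and 0.00715). Those fits set 479 and 33 spleen UMIs of Rapgef4 against 3 and 1 in bone marrow, and 337 and 63 spleen UMIs of Setbp1 against 3 and 0, in the pool and in pup 1.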
